A study of Danio rerio with 8 samples.

Results

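The translation initiation factors measured here were 65 probe sets of the 15502 tested, chosen because the array annotation gave each of them 1 gene symbol and that symbol started with eif. They read 51 of the 8793 named genes. 1 further probe set was annotated to an eif gene together with another gene and was not counted. Total RNA of the whole retina was hybridised to 8 Affymetrix arrays, and all fish were albino zebrafish (Danio rerio). The 4 light lesion samples came from fish adapted to darkness and then kept for 72 h in constant bright light, which destroys photoreceptors. The 4 unlesioned control samples came from fish adapted to darkness and then returned to ordinary lighting. The labels give no age, no sex and no word on whether fish were pooled, so the p-values rest on a spread between samples that may be technical. The series compared the 2 groups to find genes that change while photoreceptors regenerate.

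Initiation of translation loads the ribosome onto the start codon of an mRNA. The heterotrimer eIF2 carries the initiator methionyl tRNA as a complex with GTP, eIF2B recharges eIF2 with GTP, and kinases that phosphorylate the alpha subunit of eIF2 block that recharging under stress. The many subunits of eIF3 hold the small ribosomal subunit together with the other factors, eIF1A and eIF5 act in start codon recognition, and eIF5B and eIF6 act on the joining or the separation of the ribosomal subunits. The cap of the mRNA is bound by eIF4E, which joins the scaffold eIF4G and the RNA helicase eIF4A, while the 4E-BP proteins compete with eIF4G for eIF4E. eIF5A, named with the initiation factors, is now known mainly as an elongation factor and carries the modified amino acid hypusine. In zebrafish the neurons lost to a light lesion are replaced from Müller glia, the radial glia of the retina, which re-enter the cell cycle.

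The values below are log2 RMA values, 1 for each probe set on each array, and means carry the SD over n = 4 arrays per group. A fold change is given on the log2 scale as light lesion minus control, "rose" and "fell" are used for an adjusted p under 0.05, and a gene with several probe sets is represented by the brightest on average unless another is named. Medians of the arrays lay between 7.63 and 7.69. The 3′ minus 5′ difference of the GAPDH probe sets, which reads how complete the RNA or its labelling was, was 0.213 ± 0.0562 in light lesion samples and 0.0450 ± 0.0219 in controls (two-sided exact permutation p = 0.0286, the lowest possible with 4 against 4 arrays). It separates the same groups as every comparison below, and its part in the results was not tested. In whole-retina RNA, fewer cells of a type and less RNA per cell cannot be told apart. The highest mean among the Bacillus control probe sets, a guide to background, was 7.04, and 2 of the 65 eif probe sets, both of eif2ak3, lay under it.

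More initiation factor transcripts rose than fell. Of 65 probe sets 36 rose (55.4%, against 19.5% of all probe sets), 6 fell (9.23%, against 20.7%) and 23 did not pass. Counted as genes, 29 of 51 rose (56.9%, against 24.4% of all genes), 4 fell (7.84%, against 20.1%) and 18 did not pass. These shares were not matched for signal. Under the Bacillus level lay 5501 of all 15502 probe sets and 2366 of all 8793 genes, against 2 and 0 of the eif ones. With probe sets under that level left out, 37 of 63 eif probe sets were higher and 6 lower. Of all probe sets then left, 2645 were higher and 2690 lower, so 49.6% of those called were higher. The median log2 fold change was then 0.29 over the eif probe sets and -0.04 over all that were left. The shares of 19.5% and 20.7% given above include the dim probe sets. The median log2 fold change was 0.28 over the 65 eif probe sets and -0.04 over all probe sets. Among the eif probe sets 34 had all light lesion arrays above all control arrays (19.0% of all probe sets did) and 4 had all of them below (21.0% of all probe sets did). The changes were moderate, and the range ran from -0.55 for the helicase gene eif4a2 to 1.27 for the eIF3 subunit gene eif3ha. By at least 0.5 on the log2 scale 18 eif probe sets rose and 1 fell, beside 1440 and 1103 of all 15502 probe sets. By factor, 11 of the 14 probe sets of eIF3, 4 of the 5 of eIF4A and 4 of the 4 of eIF5A rose. Counted as genes these were 11 of 14, 3 of 4 and 2 of 2. For eIF1A 3 of 5 probe sets rose, but 0 of 2 genes did by their brightest probe sets. Factors without a rise had few probe sets, with 0 of 3 for the eIF2 kinase, 0 of 3 for eIF5 and eIF5B together and 0 of 1 for eIF6.

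**Figure D1:**
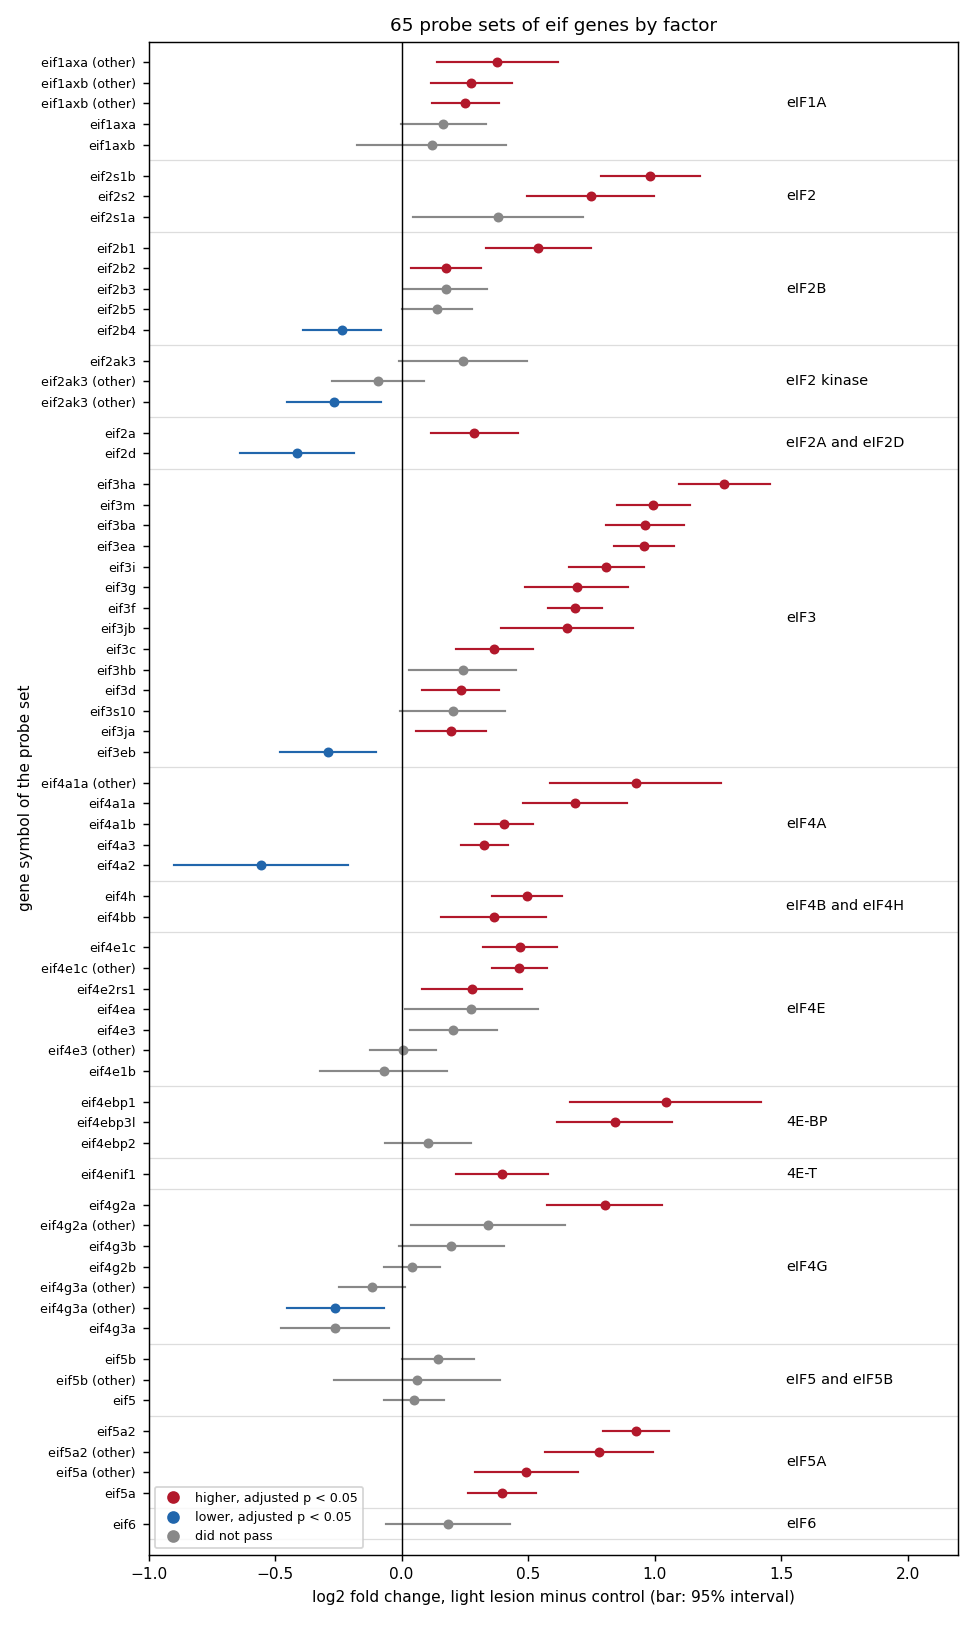
Log2 fold change (light lesion minus control, x axis) of the 65 eif probe sets, grouped by factor, with points coloured by call, bars for the 95% interval and "other" for probe sets that do not have the highest mean of their gene. The points of eIF3 reach 1.27, and the 6 that fell lie among eIF2B, the eIF2 kinase, eIF2D, eIF3, eIF4A and eIF4G.

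Within eIF2 the subunit genes that passed rose, and no counted probe set was of the gamma subunit gene eif2s3. The alpha subunit gene eif2s1b, whose protein carries the serine that stress kinases phosphorylate, read 10.09, 10.10, 9.80 and 9.79 in light lesion samples, against 9.01, 9.03, 8.84 and 8.97 in controls. It rose 1.98-fold, by 0.98 on the log2 scale (SE 0.09, adjusted p = 2.05e-05), with a wide gap between the groups. Its paralogue eif2s1a read 8.13, 8.52, 8.21 and 8.31 in light lesion samples, against 8.21, 8.15, 7.68 and 7.60 in controls. Control replicates 1 and 2 reached into the light lesion range. The difference of 0.38 (SE 0.15, adjusted p = 0.0690) did not pass, although it did without control replicate 1 (0.48, adjusted p = 0.0295) or 2 (0.46, adjusted p = 0.0492). With all arrays it also passed under another variance setting (adjusted p = 0.0497) and with either filter on dim probe sets (0.0478 and 0.0449). The beta subunit gene eif2s2 read 10.71, 11.14, 10.77 and 10.99 in light lesion samples, against 10.22, 10.34, 9.94 and 10.12 in controls. It rose 1.68-fold (log2 change 0.75, SE 0.11, adjusted p = 0.000551), again without overlap. The 2 genes that rose kept their calls in every omission of 1 array.

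The 5 subunit genes of eIF2B, the exchange factor that recharges eIF2, moved unevenly. The alpha subunit gene eif2b1 read 9.04, 9.09, 8.77 and 8.76 in light lesion samples, against 8.49, 8.35, 8.44 and 8.23 in controls, and rose by 0.54 (SE 0.09, adjusted p = 0.00127). The delta subunit gene eif2b4 read 8.77, 8.98, 8.72 and 8.67 in light lesion samples, against 9.04, 9.01, 8.98 and 9.05 in controls, and fell by 0.23 (SE 0.07, adjusted p = 0.0212). Light lesion replicate 2 lay at the level of the lowest control, and the eif2b4 call was lost without control replicate 4 (adjusted p = 0.0592), light lesion replicate 3 (0.0584) or light lesion replicate 4 (0.0569). The beta subunit gene eif2b2 was 0.17 higher with adjusted p = 0.0466. That call was kept without control replicate 2 or light lesion replicate 4. It was lost in the other 6 omissions of 1 array (adjusted p from 0.0505 to 0.120). Of all 16 alternatives 13 lost it. Among them were a second quantile normalization (adjusted p = 0.0943) and both filters on dim probe sets (0.0547 and 0.0553). The gamma and epsilon subunit genes eif2b3 (0.17, adjusted p = 0.0858, and 0.0414 without light lesion replicate 4) and eif2b5 (0.14, adjusted p = 0.105) did not pass.

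Of the eIF2 kinases only eif2ak3 was measured, which encodes PERK, the kinase of the endoplasmic reticulum stress response. Its 3 probe sets did not move alike. The brightest read 9.64, 9.44, 9.26 and 9.07 in light lesion samples, against 9.25, 9.08, 9.00 and 9.10 in controls (difference 0.24, 95% interval -0.01 to 0.50, adjusted p = 0.116, and 0.0226 without light lesion replicate 4). Light lesion replicate 1 was the highest and replicate 4 lay among the controls. The second read 6.80, 6.69, 6.77 and 6.83 in light lesion samples, against 6.83, 7.06, 7.25 and 7.01 in controls, and fell by 0.27 (SE 0.08, adjusted p = 0.0274). That call lay under the Bacillus level and was lost without control replicate 2, control replicate 4, light lesion replicate 2 or light lesion replicate 3, with adjusted p from 0.0545 to 0.0722. The dimmest, under background, read 6.51, 6.27, 6.31 and 6.36 in light lesion samples, against 6.39, 6.36, 6.67 and 6.40 in controls (-0.09, adjusted p = 0.391). The 3 probe sets together give no single direction for eif2ak3.

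Besides eIF2 itself, eIF2A and eIF2D can deliver initiator or other tRNAs to the ribosome without it. The eif2a probe set read 7.53, 7.48, 7.36 and 7.20 in light lesion samples, against 7.18, 7.15, 7.02 and 7.06 in controls, and rose by 0.29 (SE 0.08, adjusted p = 0.0141), with a narrow gap and a low level. The eif2d probe set read 8.28, 8.07, 7.88 and 7.84 in light lesion samples, against 8.54, 8.33, 8.51 and 8.35 in controls. The eif2d values did not overlap, with light lesion replicate 1 nearest to the controls, and fell by 0.41 (0.751-fold, SE 0.10, adjusted p = 0.00857). Of the 6 probe sets that fell, eif2d was the one that kept its call in every alternative run, the 0.01 threshold included.

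The scaffold complex eIF3 held the gene with the largest rise, the most measured genes and the most that rose. By share, smaller classes stood higher, with 2 of 2 genes for eIF5A, 2 of 2 for eIF4B and eIF4H together and 1 of 1 for 4E-T. Of the 14 measured subunit genes of eIF3 11 rose (78.6%, against 24.4% of all genes), 1 fell (7.14%, against 20.1%) and 2 did not pass. The median log2 fold change was 0.67, and 8 rose by at least 0.5, as did 1073 of all 8793 genes. The largest was eif3ha, the gene of subunit h, which read 10.60, 10.98, 10.91 and 10.89 in light lesion samples, against 9.51, 9.65, 9.55 and 9.58 in controls. It rose 2.42-fold (log2 change 1.27, SE 0.08, adjusted p = 2.50e-06), and its lowest light lesion array lay far above its highest control. The gene of subunit m, eif3m, read 11.70, 11.80, 11.82 and 11.76 in light lesion samples, against 10.82, 10.88, 10.61 and 10.80 in controls, a 1.99-fold rise (0.99, SE 0.06, adjusted p = 3.15e-06). In mammals subunits h and m belong to the core of the eIF3 complex, with subunits e and f among others.

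Other core and peripheral subunits followed with similar values. The subunit b gene eif3ba read 12.03, 12.12, 11.94 and 12.02 in light lesion samples, against 11.20, 11.09, 10.92 and 11.04 in controls (0.96, SE 0.07, adjusted p = 5.02e-06). The subunit e gene eif3ea read 11.96, 12.09, 12.01 and 11.98 in light lesion samples, against 11.16, 11.02, 11.00 and 11.03 in controls (0.96, SE 0.05, adjusted p = 1.36e-06). The spread of eif3ea within each group was small against its shift, and it had the smallest adjusted p of the 65 probe sets. The subunit i gene eif3i read 12.18, 12.37, 12.46 and 12.39 in light lesion samples, against 11.54, 11.55, 11.45 and 11.62 in controls (0.81, SE 0.07, adjusted p = 1.20e-05). The subunit f gene eif3f read 12.60, 12.67, 12.57 and 12.54 in light lesion samples, against 11.93, 11.96, 11.86 and 11.89 in controls (0.69, SE 0.05, adjusted p = 4.70e-06). None of these 4 genes had overlapping groups. The subunit g gene eif3g, whose protein binds RNA, read 11.66, 12.08, 11.97 and 12.05 in light lesion samples, against 11.24, 11.32, 11.16 and 11.27 in controls (0.69, SE 0.09, adjusted p = 0.000235). The subunit j gene eif3jb, whose protein is loosely bound to the complex, read 9.28, 9.90, 9.62 and 9.74 in light lesion samples, against 9.03, 8.90, 8.92 and 9.06 in controls (0.65, SE 0.12, adjusted p = 0.00157). In both genes light lesion replicate 1 was the lowest of its group and closest to the controls.

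The remaining eIF3 genes moved less or the other way. Rises of 0.37 for eif3c (adjusted p = 0.00189), 0.23 for eif3d (adjusted p = 0.0205), whose protein can bind the cap in mammals, and 0.19 for eif3ja (adjusted p = 0.0290) passed. The eif3d call was lost without control replicate 2, control replicate 3, light lesion replicate 3 or light lesion replicate 4 (adjusted p from 0.0504 to 0.0599), and that of eif3ja without control replicate 3, control replicate 4, light lesion replicate 2 or light lesion replicate 3 (0.0629 to 0.0791). The large subunit a gene, listed as eif3s10 (0.20, adjusted p = 0.113, and 0.00925 without light lesion replicate 1), and eif3hb (0.24, adjusted p = 0.0704, and 0.0172 without control replicate 1) did not pass. The member that fell was eif3eb, which read 9.10, 8.87, 8.75 and 8.72 in light lesion samples, against 9.25, 9.11, 9.17 and 9.07 in controls (-0.29, SE 0.08, adjusted p = 0.0214). Its light lesion replicate 1 lay within the control range, and the call was lost without control replicate 1, light lesion replicate 3 or light lesion replicate 4 (adjusted p from 0.0559 to 0.0595).

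**Figure D2:**
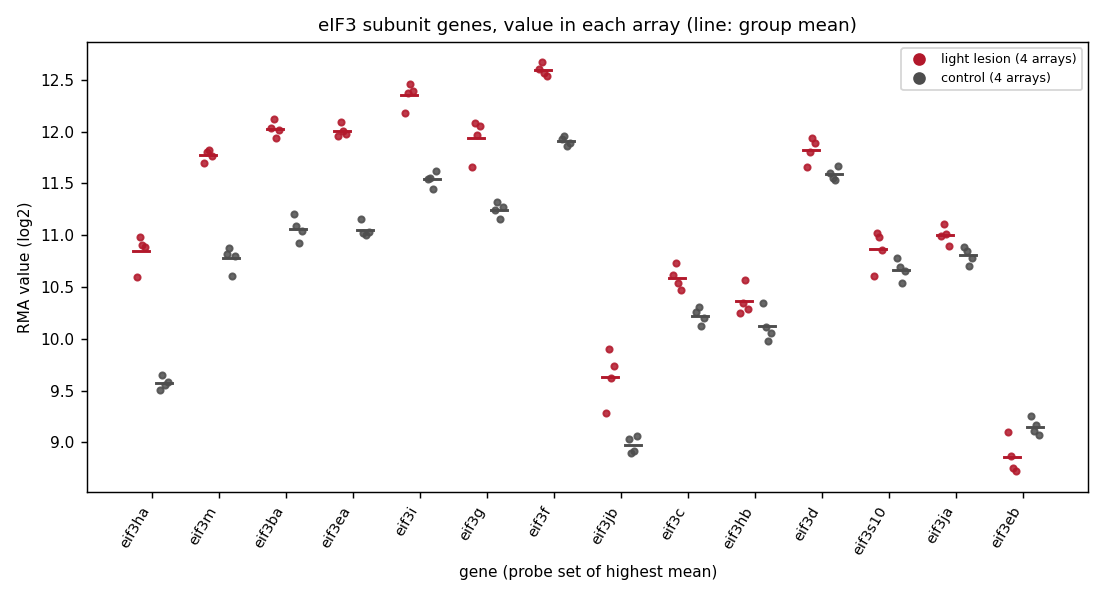
RMA values (log2, y axis) of the 14 eIF3 subunit genes in each array, light lesion in red left of control in grey, with lines for the group means, in order of fold change. From eif3ha to eif3c the groups do not overlap, and eif3eb at the right is the gene that fell.

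The eIF4A helicases, which unwind the leader of the mRNA, split by gene. The eif4a1a probe set of highest mean read 12.29, 12.40, 12.62 and 12.72 in light lesion samples, against 11.75, 11.88, 11.82 and 11.83 in controls, and rose by 0.68 (1.61-fold, SE 0.09, adjusted p = 0.000269). Its second probe set read 10.32, 10.72, 9.96 and 10.47 in light lesion samples, against 9.59, 9.58, 9.38 and 9.23 in controls, and rose by 0.93 (SE 0.15, adjusted p = 0.000921). Neither overlapped between groups. The paralogue eif4a1b rose by 0.41 (adjusted p = 0.000174) and eif4a3, which marks exon junctions after splicing rather than acting in initiation, by 0.33 (adjusted p = 0.000175). In contrast, eif4a2 read 10.68, 10.91, 10.58 and 10.08 in light lesion samples, against 11.25, 11.16, 11.08 and 10.97 in controls. All light lesion arrays of eif4a2 lay below the controls, replicate 4 furthest, and the gene fell 0.681-fold (log2 change -0.55, SE 0.15, adjusted p = 0.0164). The genes of the helicase cofactors rose, eif4bb by 0.36 (adjusted p = 0.0109) and eif4h by 0.49 (SE 0.06, adjusted p = 0.000175). The eif4h probe set read 10.29, 10.50, 10.52 and 10.55 in light lesion samples, against 9.97, 10.01, 9.93 and 9.97 in controls. The controls of eif4h lay close together and all light lesion arrays stood above them.

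Among the cap-binding eIF4E genes eif4e1c changed most. Its brighter probe set read 11.26, 11.38, 11.49 and 11.55 in light lesion samples, against 11.02, 10.95, 10.92 and 10.93 in controls, and rose by 0.47 (1.38-fold, SE 0.07, adjusted p = 0.000367). The other read 10.20, 10.25, 10.26 and 10.34 in light lesion samples, against 9.78, 9.85, 9.75 and 9.81 in controls, and rose by 0.46 (SE 0.05, adjusted p = 5.42e-05). The 2 probe sets of eif4e1c thus moved by nearly the same amount. The eif4ea probe set read 9.37, 9.14, 9.25 and 9.23 in light lesion samples, against 9.19, 9.07, 8.60 and 9.02 in controls. Control replicate 3 was the lowest, control replicate 1 lay within the light lesion range, and the difference of 0.28 (95% interval 0.01 to 0.54, adjusted p = 0.0889, and 0.0433 without control replicate 1) did not pass. Of the rest, eif4e2rs1 was called 0.28 higher (adjusted p = 0.0295), a call lost without control replicate 3, control replicate 4, light lesion replicate 2 or light lesion replicate 3 (adjusted p from 0.0532 to 0.0770). The eif4e3 gene (0.20, adjusted p = 0.0610, and 0.0446 without control replicate 1 and 0.0219 without light lesion replicate 4), with its second probe set at 0.01 (adjusted p = 0.941), and eif4e1b (-0.07, adjusted p = 0.647), a form known from the germ line, did not pass.

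Of the 3 genes of 4E-BP inhibitors, which hold eIF4E away from eIF4G, 2 rose. The eif4ebp1 probe set read 9.89, 10.82, 10.41 and 10.54 in light lesion samples, against 9.47, 9.47, 9.30 and 9.25 in controls, and rose 2.06-fold (1.04, SE 0.17, adjusted p = 0.000869). The light lesion arrays of eif4ebp1 spread widely, with replicate 1 lowest, yet all lay above the controls. The eif4ebp3l probe set read 9.59, 9.91, 10.00 and 9.96 in light lesion samples, against 9.16, 9.03, 9.07 and 8.83 in controls, a 1.79-fold rise (0.84, SE 0.10, adjusted p = 0.000142). The third, eif4ebp2, read 11.83, 11.53, 11.63 and 11.55 in light lesion samples, against 11.65, 11.49, 11.46 and 11.53 in controls (0.10, 95% interval -0.06 to 0.27, adjusted p = 0.305). Its groups overlapped, and the interval reached no further than 0.27. The 4E-T gene eif4enif1, whose protein binds eIF4E and carries it into the nucleus and to processing bodies, read 7.87, 7.56, 7.78 and 7.80 in light lesion samples, against 7.25, 7.27, 7.46 and 7.46 in controls (0.40, SE 0.08, adjusted p = 0.00349), without overlap.

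No counted probe set was of an eif4g1 gene, and the eIF4G scaffolds that were measured changed little apart from eif4g2a. That gene encodes a relative of eIF4G, known in mammals as DAP5, that lacks the site for eIF4E. Its brighter probe set read 10.65, 10.19, 10.60 and 10.49 in light lesion samples, against 9.81, 9.69, 9.54 and 9.69 in controls, and rose 1.74-fold (log2 change 0.80, SE 0.10, adjusted p = 0.000192). Its other probe set read 8.70, 9.22, 9.03 and 9.33 in light lesion samples, against 8.97, 8.64, 8.59 and 8.73 in controls (0.34, SE 0.13, adjusted p = 0.0720). There light lesion replicate 1 lay among the controls, and the difference passed without it (0.46, adjusted p = 0.00640) or without control replicate 1 (0.42, adjusted p = 0.0407). The paralogue eif4g2b stood at 0.04 (95% interval -0.07 to 0.15, adjusted p = 0.557). Of the 3 probe sets of eif4g3a, the brightest was at -0.26 (adjusted p = 0.0522, and 0.0122 without light lesion replicate 1) and another at -0.12 (adjusted p = 0.136). The dimmest read 7.07, 7.21, 7.01 and 6.86 in light lesion samples, against 7.48, 7.26, 7.24 and 7.22 in controls, and fell by 0.26 (SE 0.09, adjusted p = 0.0349). Its groups were separated by a narrow gap, and its light lesion mean of 7.04 lay at the Bacillus level of 7.04. The call was lost without control replicate 1, control replicate 2, light lesion replicate 3 or light lesion replicate 4 (adjusted p from 0.0626 to 0.0843). With all arrays it was also lost under median centring (adjusted p = 0.0540) and a second quantile normalization (0.0748). Under that second normalization the brightest eif4g3a probe set passed (adjusted p = 0.0211). The eif4g3b probe set stood at 0.20 (adjusted p = 0.122).

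The factors of start codon recognition and subunit joining moved little in their brightest probe sets. The brightest probe sets of the eIF1A genes did not pass, at 0.17 for eif1axa (adjusted p = 0.111, and 0.0451 without light lesion replicate 2) and 0.12 for eif1axb (adjusted p = 0.507). For eif1axb light lesion replicate 1 alone lay below the controls, and without it the difference was 0.27 (adjusted p = 0.00896). The other probe sets of both genes rose, by 0.38 for eif1axa (SE 0.11, adjusted p = 0.0182) and by 0.25 and 0.28 for eif1axb (adjusted p = 0.00737 and 0.0121). The one of eif1axa read 7.75, 7.78, 8.09 and 7.99 in light lesion samples, against 7.70, 7.61, 7.27 and 7.52 in controls, with a very narrow gap between the groups. The gene of the GTPase activator eif5 stood at 0.05 (95% interval -0.07 to 0.17, adjusted p = 0.491) and that of the joining factor eif5b at 0.14 (adjusted p = 0.0996, and 0.0409 without control replicate 4), with its second probe set at 0.06 (adjusted p = 0.760). The eif6 probe set, for the factor that keeps the large subunit apart, read 8.95, 9.52, 9.04 and 9.06 in light lesion samples, against 9.00, 8.96, 8.95 and 8.93 in controls. Only light lesion replicate 2 stood well above the controls, and the difference of 0.18 (95% interval -0.06 to 0.43, adjusted p = 0.219) did not pass.

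Both eIF5A genes rose. The log2 fold change was 0.53 larger for eif5a2 than for eif5a, which did not pass in the planned exact permutation test (adjusted p = 0.0514). The brighter eif5a2 probe set read 12.28, 12.45, 12.31 and 12.38 in light lesion samples, against 11.46, 11.46, 11.31 and 11.47 in controls, and rose 1.90-fold (0.93, SE 0.06, adjusted p = 2.46e-06). The other read 11.15, 11.14, 10.88 and 11.12 in light lesion samples, against 10.10, 10.51, 10.32 and 10.22 in controls (0.78, SE 0.09, adjusted p = 0.000148). Neither overlapped. The brighter eif5a probe set read 12.67, 12.67, 12.88 and 12.80 in light lesion samples, against 12.34, 12.30, 12.38 and 12.41 in controls, a 1.31-fold rise (0.39, SE 0.06, adjusted p = 0.000584). Its other probe set read 10.51, 10.61, 10.82 and 10.95 in light lesion samples, against 10.26, 10.27, 10.21 and 10.18 in controls (0.49, SE 0.09, adjusted p = 0.00185). All 4 probe sets of the family kept their calls in every omission of 1 array. Where paralogues are near-identical in sequence, a probe set may read both, which the files do not show.

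Zebrafish keep duplicated genes for many factors, and related genes were compared on their per-array difference in 27 pairs within the same factor family. The pairs hold such duplicates, as eif3ea and eif3eb, and also differently numbered genes of a family, as eif4a1a and eif4a2 or eif4ebp1 and eif4ebp2. Several pairs share a gene, as those of eif4a2 with eif4a1a, eif4a1b and eif4a3, so the 27 pairs are not independent of each other. The largest differences of log2 fold change were 1.25 (SE 0.10) for eif3ea minus eif3eb, 1.24 (SE 0.27) for eif4a1a minus eif4a2, 1.07 (SE 0.15) for eif4g2a minus eif4g3a and 1.03 (SE 0.12) for eif3ha minus eif3hb. They were followed by 0.96 (SE 0.16) for eif4a1b minus eif4a2, 0.94 (SE 0.27) for eif4ebp1 minus eif4ebp2 and 0.88 (SE 0.19) for eif4a3 minus eif4a2. Differences of 0.60 (SE 0.17) for eif2s1b minus eif2s1a and 0.53 (SE 0.09) for eif5a2 minus eif5a were smaller. In 15 of the 27 pairs, these 9 among them, the per-array differences of the light lesion and control arrays did not overlap, which gives the smallest exact permutation p that 4 against 4 arrays allow (two-sided p = 0.0286). After Benjamini-Hochberg adjustment over the 27 pairs those 15 stood at 0.0514, so none of the 27 passed as designed. When each gene was read as the mean of its probe sets 18 passed (adjusted p = 0.0429). Since no exact p can be smaller than 0.0286, both results depend on how many pairs reached that floor. Over single probe sets, 19.0% had all light lesion arrays above all controls and 21.0% had all of them below. The share for pairs of other genes was not computed. Pairs that differed little were eif1axa minus eif1axb (0.05, SE 0.16, exact p = 0.886, adjusted p = 0.886) and eif4ebp1 minus eif4ebp3l (0.20, SE 0.14, exact p = 0.257, adjusted p = 0.302).

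**Figure D3:**
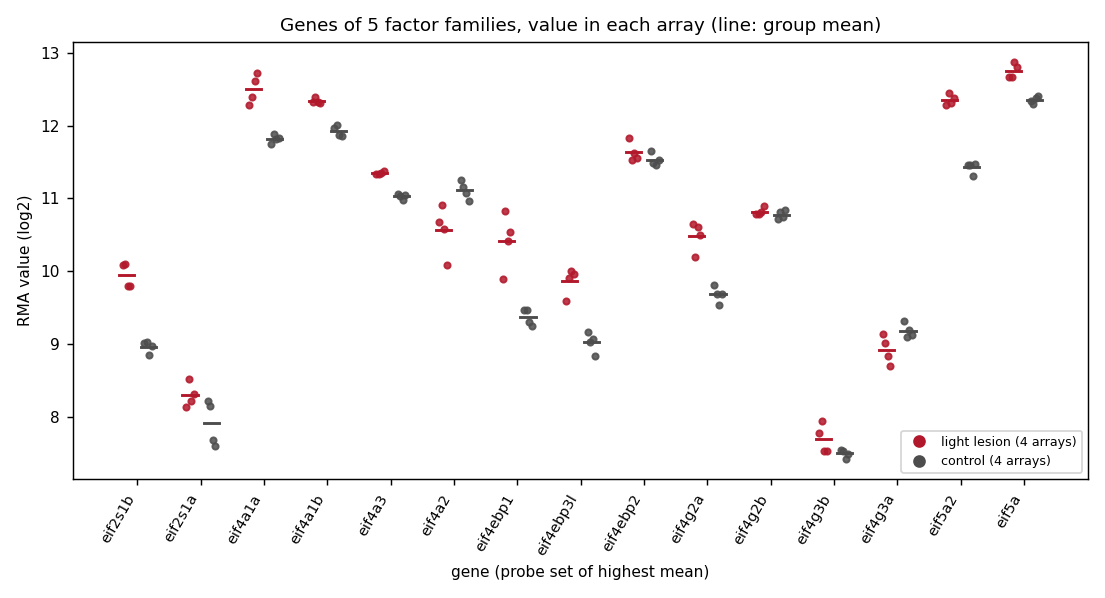
RMA values (log2, y axis) in each array for genes of the eIF2 alpha, eIF4A, 4E-BP, eIF4G and eIF5A families, light lesion in red left of control in grey, with lines for the group means. Within families some genes separate by group (eif2s1b, eif4ebp1, eif4g2a) beside relatives that overlap (eif2s1a, eif4ebp2, eif4g2b), and eif4a2 lies lower after the light lesion.

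The arrays of a group did not weigh equally in these values. Averaged over the 36 probe sets that rose, the shift against the control mean was 0.51, 0.66, 0.60 and 0.63 in light lesion replicates 1 to 4, against 0.04, 0.04, -0.06 and -0.02 in control replicates 1 to 4. Light lesion replicate 1 was the lowest of its group in 20 of the 36 and control replicate 3 the lowest control in 21. Such counts were not made over all probe sets, so they may not be particular to the eif ones. Over the 6 that fell, the shift was -0.23, -0.22, -0.39 and -0.51 in light lesion replicates 1 to 4, against 0.06, -0.02, 0.03 and -0.06 in the control replicates, and light lesion replicate 4 was the lowest of its group in 5 of the 6. Without light lesion replicate 3, 2 of the 6 falls kept their call, and without replicate 4, 3 did.

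Around the factors, proteins that modify or assist them were read as lists of genes. Of 30 measured cofactors of initiation not named eif, 9 rose (30%) and 6 fell (20%), close to the 24.4% and 20.1% of all genes, with a median of 0.04 (-0.03 over all genes). The largest rises were bzw1b (1.36, SE 0.15, adjusted p = 8.21e-05), whose mammalian counterpart mimics eIF5, the RNA-binding ybx1 (0.84, with a second dim probe set at 0.00) and the ribosome recycling ATPase abce1 (0.77). The largest falls were dhps (-0.81, SE 0.10, adjusted p = 0.000145), the poly(A)-binding protein gene pabpc1b (-0.58) and pdcd4b (-0.57, adjusted p = 0.0398), whose counterpart in mammals inhibits eIF4A. The paralogue pabpc1a rose by 0.26 (adjusted p = 0.00196), and pdcd4a stood at 0.00 (adjusted p = 0.994). The dhps gene encodes the deoxyhypusine synthase that starts the modification of eIF5A and read 8.59, 8.35, 8.42 and 8.11 in light lesion samples, against 9.32, 9.12, 9.09 and 9.20 in controls. It fell while both eIF5A genes rose. The gene of the second enzyme of that modification, dohh, rose by 0.60 (SE 0.06, adjusted p = 5.70e-05). Of the recycling pair related to eIF2D, mcts1 rose by 0.70 (adjusted p = 2.05e-05) and denr stood at 0.26 (adjusted p = 0.0652). The genes pabpc1a, pdcd4a, dohh, mcts1 and denr were singled out after their values were seen.

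Of 24 genes of the mTORC1 and kinase arm above the cap-binding complex 7 rose (29.2%, against 24.4% of all genes) and 8 fell (33.3%, against 20.1% of all genes), with a median of -0.03. The MNK kinases phosphorylate eIF4E, and mknk2a read 9.33, 9.88, 9.72 and 9.65 in light lesion samples, against 11.40, 11.34, 11.35 and 11.41 in controls, a fall to 0.301-fold (-1.73 on the log2 scale, SE 0.10, adjusted p = 1.74e-06). The groups of mknk2a lay far apart. Its paralogue mknk2b fell by 0.48 (adjusted p = 0.00521), with other probe sets at -0.985 and -0.904. The third MNK gene measured, mknk1, singled out after its values were seen, rose by 0.43 (SE 0.07, adjusted p = 0.00101) at a mean under the Bacillus level. The RSK kinase gene rps6ka3a fell by 0.47. The ribosomal protein gene rps6 (0.90, SE 0.06, adjusted p = 3.35e-06), the Rag GTPase gene rraga (0.47) and the stress gene sesn3 (0.46) rose most.

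Below eIF2, phosphorylation of its alpha subunit favours translation of ATF4, which induces the genes of the integrated stress response. The list read for this response had 25 measured genes, the ATF4 genes atf4a and atf4b among them. Of these 14 rose (56%, against 24.4% of all genes) and 4 fell (16%, against 20.1% of all genes), with a median of 0.30. The transcription factor genes atf5a (3.31) and atf3 (2.92) and the serine synthesis gene psat1 (1.48) rose most, while atf4a (-0.60, SE 0.08, adjusted p = 0.000190), the glutathione-degrading chac1 (-0.56, a second probe set under background at -0.05) and the tRNA synthetase gene cars1 (-0.35, a dim second probe set at -0.23 that did not pass) fell. The atf4a probe set read 11.67, 11.96, 11.67 and 11.64 in light lesion samples, against 12.34, 12.42, 12.28 and 12.30 in controls, with no overlap. Its paralogue atf4b, singled out after its values were seen, stood at 0.00 (95% interval -0.13 to 0.12, adjusted p = 0.976). Genes of this list moved in both directions. Of 13 elongation and release genes 8 rose (61.5%, against 24.4% of all genes) and 4 fell (30.8%, against 20.1% of all genes), with a median of 0.36. The genes of the exchange factor that recharges eEF1A with GTP, eef1b2 (1.27) and eef1db (1.11), and the translocase gene eef2b (1.22) rose most, while eef1a1b (-1.11), eef2l2 (-0.77) and eef1a1a (-0.60) fell most.

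**Figure D4:**
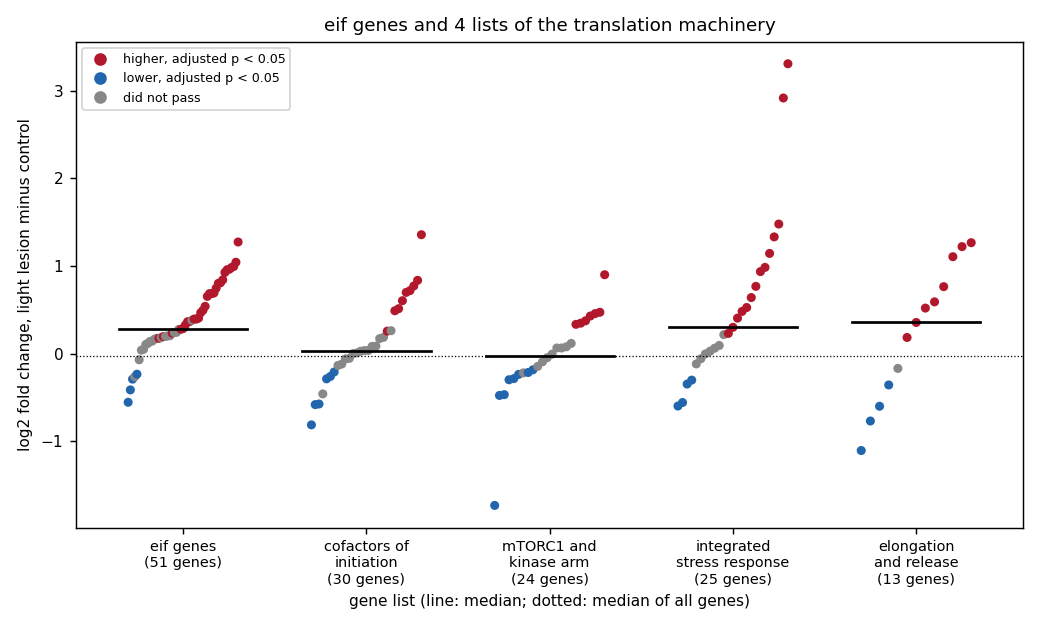
Log2 fold change (light lesion minus control, y axis) of the 51 eif genes and of 4 lists of the translation machinery, 1 point per gene coloured by call, with lines for the medians and a dotted line for the median of all genes. The eif genes have a median of 0.29 and lie mostly above 0, while the mTORC1 and kinase arm spreads to both sides with mknk2a lowest at -1.73.

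Many markers of cell types whose share can differ after a lesion moved with the same groups. Of all genes 24.4% rose and 20.1% fell. All 6 measured rod markers fell, with their mean level between 10.52 and 10.89 in light lesion arrays and between 12.77 and 12.89 in controls. Of 13 microglia and leukocyte markers 12 rose (9.21 to 9.49 in light lesion arrays, 8.33 to 8.41 in controls), and of 11 markers of proliferating cells 9 rose (8.86 to 9.13, against 7.76 to 8.03 in controls). Of 8 Müller glia markers 4 rose and 2 fell, and their mean level was 11.17 to 11.28, against 10.74 to 10.86 in controls. Their log2 fold changes ran from -0.64 to 2.23 with a median of 0.11, so that level does not stand for every marker. Of 4 pigment epithelium markers 3 rose (11.06 to 11.31, against 10.22 to 10.26 in controls). The part of these cell types in the values of the initiation factors was not tested.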

How the data were processed

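Gene expression was measured on 8 arrays, 4 light lesion and 4 control, grouped by sample title. The authors deposited log2 values of probe sets, which RMA produced, per the submitters' processing notes. Neither its version nor its steps is given in the sources used here, and the log base was inferred from the values, which ran from 5.47 to 14.89. Per the labels, a commercial kit was used to extract the RNA and an in vitro transcription kit to label it with biotin. RMA's normalization sets changes relative to the whole array, so a shift shared by most genes would not be seen. The number of arrays limits the precision.

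Of 15617 probe sets 115 controls were left out. Of the other 15502 the array annotation gave 10795 a single symbol, 135 several and 4572 none. All 65 eif probe sets matched the RefSeq gene table by gene identifier with the same symbol. Of the eif genes 11 have more than 1 probe set, and in 5 of them the probe sets differ in call. No sequences or coordinates are given.

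The fit across all probe sets used lmFit and eBayes of limma 3.58.1 (R 4.3.3) with the group as its only term, two-sided and without a filter, with Benjamini-Hochberg adjustment over all 15502 probe sets and a threshold of 0.05. Paralogue pairs were compared by exact permutation, two-sided, over the 70 assignments of the arrays. Letters that belong to a factor's own name (as in eif5a and eif5b) did not make a pair. Every eif probe set was named or counted. Values in every array were given for those past the threshold with a change of at least 0.5, for the largest rise and fall of each factor and for a fixed set of regulators. In the other lists up to 3 genes per direction were named. The members and lists were chosen with earlier results of these data known. Alternatives were a replicate block, other normalizations, filters on dim probe sets, other variance settings, a threshold of 0.01, leaving out each array and averaging probe sets. A filter at the highest Bacillus control and a count over any probe set of a gene were added after seeing the data. The steps were tested on simulated data.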

Additional observations from a re-analysis of the deposited data

Results flagged for a closer look

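In 9 of 178 groups of 4 arrays 1 array stood apart from the others by a share of the range above Dixon's 95% critical value. Chance flags about 1 in 20 such groups. Control replicate 3 was apart 4 times, at 11.31 for the brighter eif5a2 probe set, 9.43 for eif4e2rs1, 6.67 for the dimmest eif2ak3 probe set and 12.13 for the elongation factor gene eef1b2. Control replicate 1 was high for eif3ea (11.16) and for the dimmest eif4g3a probe set (7.48). Control replicate 2 was high for rps6ka3a (9.63). Light lesion replicate 3 was low for the other eif5a2 probe set (10.88), and light lesion replicate 2 was high for atf4a (11.96). The causes were not tested.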

How the results depend on the processing

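No eif probe set that was called under any setting changed direction. Of the 42 called, 29 kept their call in every alternative and 13 lost it in at least 1, and 13 of the 23 others passed in at least 1. Leaving out 1 array gave 32 to 40 eif probe sets higher and 2 to 7 lower, and 25 to 32 genes higher and 2 to 5 lower. At a threshold of 0.01, 28 probe sets were higher and 1 lower, and 1 gene was lower. With a replicate block 34 probe sets were higher and 7 lower, with 3 of the 42 calls lost (the dimmer eif1axa probe set, adjusted p = 0.0600, eif2b2, 0.0583, and eif4e2rs1, 0.0506) and 2 gained (eif4e3 and the brightest eif4g3a probe set). Deviations of same-numbered arrays correlated at -0.21, 0.28, -0.24 and 0.17, and 2 of 8 arrays correlated best with their own number, so the numbers were not taken as pairs. Of the 27 paralogue pairs 0 passed in the main setting and 18 with averaged probe sets. With 1 array left out none can pass, since the smallest exact p is then 0.0571. Counts of the 4 lists stayed within 1.5 times under the alternatives run. For probe sets under background, such as 2 of eif2ak3, low signal limits the measured change.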

Other observations

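Paralogues of the elongation factors also had changes of opposite sign. The eef1a1l1 gene, for the factor that brings aminoacyl tRNA to the ribosome, averaged 14.37 ± 0.07 in light lesion samples and 13.78 ± 0.05 in controls (SD, n = 4 each) and rose by 0.59 (limma, adjusted p = 1.7e-05). Its relatives eef1a1a (-0.60) and eef1a1b (-1.11) fell. The translocase gene eef2b rose by 1.22, while eef2l2 fell by 0.77, with other probe sets at -0.51 and -0.21. These genes were singled out after their values were seen, and the differences between them were not tested.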
